A study of Bos taurus with 2 samples.

Results

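The 9 genes described here encode secreted proteins of the connective tissue matrix: the small leucine-rich proteoglycans DCN (decorin) and LUM (lumican), the microfibril proteins FBN1 (fibrillin), MFAP4, MFAP5 and FBLN1 (fibulin), the calcification inhibitor MGP, the lubricant PRG4 (lubricin) and the matricellular protein POSTN (periostin). They were taken by symbol, 9 of the 27270 gene rows of each count matrix, and each symbol matched 1 row. Single cells of the mammary gland of Holstein dairy cattle were profiled by droplet 3' RNA sequencing, 1 library coming from an adult in lactation and 1 from a newborn animal. The labels do not say how many animals each library holds, and fat was trimmed off before enzymatic digestion with hyaluronidase and collagenases. With 1 library per stage there is no replicate check and no test between stages.

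Fibroblasts build the collagen network of the mammary stroma and coat its fibrils with small proteoglycans, which carry a leucine-rich protein core and sugar chains and set how fibrils pack. Fibrillin polymers form microfibrils, on which elastin is deposited and to which growth factors of the TGF-beta family are tethered, and the microfibril-associated proteins and fibulins bind to them. Matricellular proteins such as periostin are secreted into the same matrix and signal to cells through integrins.

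Depth was 85388618 UMIs (unique molecular identifiers, each counted as 1 captured RNA molecule) over 15897 lactating barcodes, a median of 2723 per barcode. For the newborn it was 65597671 UMIs over 13772 barcodes, a median of 4581. The libraries had 57 barcode sequences in common. Filters on detected genes and mitochondrial UMIs left 14691 and 13710 barcodes, and these were assigned to cell classes by raw UMIs of marker lists that hold none of the 9 genes. A gated fibroblast had at least 0.2% of its UMIs in the collagen genes COL1A1, COL1A2 and COL3A1 and almost none in the lists of other lineages. By this rule 151 lactating barcodes (1.03%) and 10817 newborn barcodes (78.9%) were fibroblasts, with medians of 2752 and 4862 UMIs. PDGFRA, a receptor that marks fibroblasts, stood at 507 CPM (the gene's UMIs scaled to all UMIs of the same barcodes) in the lactating and 137 CPM in the newborn fibroblasts, and the leukocyte gene PTPRC at 13.4 and 0.791 CPM. Milk protein genes made up 1.82% of the UMIs of the lactating fibroblasts. The lactating library also held epithelium, of which 268 barcodes were milk-secreting. No newborn barcode passed an epithelial gate, which allows a share of up to 0.0219% of the barcodes kept.

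All 9 genes stood highest in the fibroblasts of the newborn library among 4 classes of at least 50 barcodes, and 8 of 9 did so in the lactating library among 11 classes. POSTN in the lactating library was the exception. The first place of PRG4 in the newborn library was not separated, as its 7.68 CPM lay within the counting intervals of the other 3 classes. In the newborn library gated fibroblasts held 55597610 of all 65597671 UMIs. Their share of the UMIs of each of the 9 genes, from 85.2% for PRG4 to 94.5% for MFAP4, is to be read beside that total. In the lactating library gated fibroblasts held 597550 of 85388618 UMIs, and more than 50% of the UMIs of 6 of the 9 genes. The 3 others there were MGP, with 27.7% of its UMIs in gated fibroblasts, FBN1 with 31.9% and POSTN with 3.45%.

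**Figure D1:**
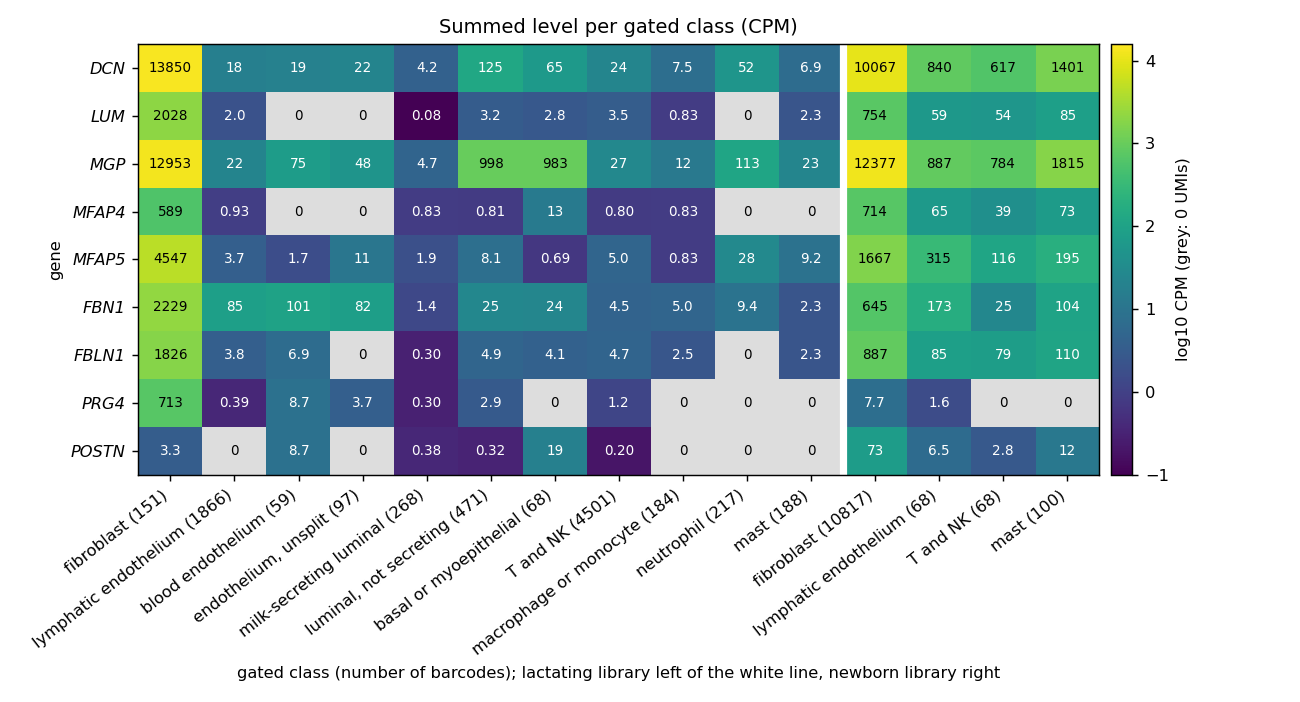
Summed level of each gene in each gated class, in CPM, with the number of barcodes in parentheses; colour is the log10 of the CPM and grey marks 0 UMIs. The fibroblast columns are the brightest for every gene except POSTN in the lactating library, and MGP stands at 998 and 983 CPM in luminal and basal epithelium.

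UMIs of abundant genes also turn up in barcodes of cells that do not make them, through RNA released into the suspension. T and NK cells, which should lack these matrix genes, were therefore read beside each class. In the lactating library the 8 genes with at least 10 UMIs in T and NK cells stood there at 0.110% to 0.260% of their own fibroblast level, a range of 2.36-fold, over 4501 barcodes with a median of 2857 UMIs. In the newborn library the 6 genes with at least 10 UMIs stood at 5.53% to 8.90% in 68 T and NK barcodes with a median of 4585.5 UMIs, and mast cells reached 10.2% to 16.1%. The newborn background is thus far larger relative to the fibroblasts, and levels of these genes in newborn immune cells were read as background. This background was uneven between barcodes. In lactating T and NK cells the top 1% of barcodes held 64.7% of the DCN UMIs, and in the newborn ones 1 barcode held 81 of 219. How much of it came from free RNA and how much from barcodes with more than 1 cell was not tested.

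The proteoglycan DCN binds collagen fibrils and holds TGF-beta. It stood at 13849.9 CPM in the lactating fibroblasts (exact 95% Poisson interval 13553.1 to 14151.6) and at 10066.6 CPM in the newborn fibroblasts (10040.3 to 10093.0). All 151 lactating and 10787 of 10817 newborn fibroblasts held at least 1 UMI of it. The newborn level was 0.727 times the lactating one (exact conditional binomial interval 0.711 to 0.743). All intervals cover counting error only and not the difference between animals. LUM, the sister proteoglycan that also shapes collagen fibrils, stood at 2028 CPM in the lactating and 754 CPM in the newborn fibroblasts. The newborn level of LUM was 2.69-fold lower (2.54 to 2.85). After thinning every barcode to 1000 UMIs, LUM was detected in 77.9% of 136 lactating and 46.5% of 10277 newborn fibroblasts, against 0.319% of 4396 lactating and 8.96% of 67 newborn T and NK barcodes. Without thinning the LUM shares of fibroblasts were 92.7% and 82.0%.

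FBN1, which polymerises into the backbone of microfibrils, differed more between the libraries than the proteoglycans over all gated fibroblasts, though not in the set matched on PI16 and CLEC3B, where it was 1.21-fold and LUM 2.19-fold lower in the newborn. It stood at 2229 CPM in the lactating fibroblasts (2111 to 2352) and at 645 CPM in the newborn fibroblasts (638 to 652), which is 3.46-fold lower (3.27 to 3.65). MFAP5, a small glycoprotein that binds fibrillin, stood at 4547 and 1667 CPM and was 2.73-fold lower in the newborn (2.62 to 2.83). FBLN1, a calcium-binding glycoprotein of elastic fibres and basement membranes, stood at 1826 and 887 CPM and was 2.06-fold lower (1.94 to 2.19). MFAP4, a fibrinogen-related protein of elastic fibres, went the other way by a small amount, with 589 CPM in the lactating and 714 CPM in the newborn fibroblasts, a ratio of 1.21 (1.09 to 1.35). The thinned shares differed in the same directions for FBN1, MFAP5 and FBLN1. For MFAP4 they did not separate, with intervals of 32.8% to 49.9% in the lactating and 43.7% to 45.6% in the newborn fibroblasts. FBN1 was detected in 70.6% of lactating and 37.9% of newborn fibroblasts, MFAP5 in 83.8% and 63.3%, FBLN1 in 78.7% and 55.3%, and MFAP4 in 41.2% and 44.7%.

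MGP, a vitamin K-dependent protein that keeps soft tissue from calcifying, was close to equal. It stood at 12952.9 CPM in the lactating (12665.9 to 13244.7) and 12376.8 CPM in the newborn fibroblasts (12347.6 to 12406.1), a ratio of 0.956 (0.934 to 0.977). Its direction was not stable: it was higher in the newborn under 6 of 19 other settings, and MFAP4 was lower in the newborn under 4 of 19. A single lactating barcode held 922 of the 7740 MGP UMIs.

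The gaps for PRG4 and POSTN were of another size. PRG4, the mucin-like glycoprotein that lubricates joint and tendon surfaces, stood at 713 CPM in the lactating fibroblasts (647 to 784, 426 UMIs) and at 7.68 CPM in the newborn fibroblasts (6.97 to 8.44, 427 UMIs). It was 92.8-fold lower in the newborn (81.0 to 106). POSTN, which binds collagen and integrins, stood at 3.35 CPM in the lactating fibroblasts on 2 UMIs (0.405 to 12.1) and at 73.5 CPM in the newborn fibroblasts on 4086 UMIs (71.3 to 75.8). It was 22.0-fold higher in the newborn, with a wide interval of 6.08 to 181 that follows from the 2 lactating UMIs. In newborn T and NK cells PRG4 had 0 UMIs, which allows up to 8.46 CPM, and POSTN had 1 UMI.

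**Figure D2:**
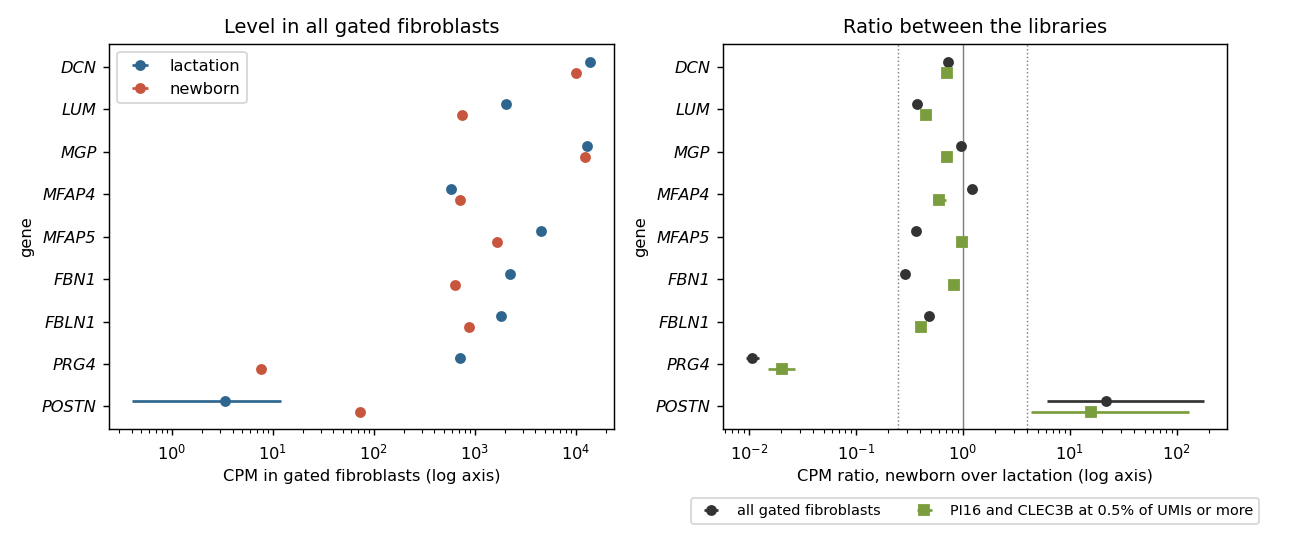
Left, level of each gene in gated fibroblasts of the lactating (blue) and newborn (red) library in CPM on a log axis, with exact Poisson intervals of 95%; right, newborn over lactating ratio on a log axis with exact conditional binomial intervals, over all gated fibroblasts (black) and over those with PI16 and CLEC3B at 0.5% of UMIs or more (green). Dotted lines mark 4-fold; PRG4 and POSTN lie outside them in both sets, and MFAP5 and FBN1 move from 2.73-fold and 3.46-fold lower in the newborn to ratios of 0.979 and 0.829.

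A gene counted as called when the libraries differed 4-fold and the higher of them reached 50 CPM on 20 UMIs. PRG4 was called on the lactating side and POSTN on the newborn side, 1 gene each, and the other 7 were not called. Of all 3228 genes that reached the level, 6.69% were called on the lactating side and 3.72% on the newborn side, and 1 of 9 each way is no result about the 9 genes as a group. Over 11089 genes with at least 20 UMIs summed over the libraries and some in each, the median log2 difference, newborn minus lactating, was -0.74, a factor of 1.68. All 9 genes met the same rule, POSTN with 2 lactating UMIs, and their median was -1.04. Relative to the median of all genes, DCN (0.28), MGP (0.68), MFAP4 (1.02) and POSTN (5.20) lay on the newborn side and the other 5 on the lactating side. The collagens, which chose the fibroblasts and so are given as a description only, had newborn over lactating ratios of 2.24 for COL1A1, 1.56 for COL1A2 and 1.09 for COL3A1.

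In mouse, PI16 marks fibroblasts around vessels and in fascia, and the libraries differed in PI16 and in CLEC3B, a plasminogen-binding protein. PI16 stood at 3280 CPM in the lactating and 321 CPM in the newborn fibroblasts, and CLEC3B at 4495 and 1234 CPM. The comparison was therefore repeated, chosen after seeing the data, on the 75 lactating and 368 newborn fibroblasts with both genes together at 0.5% of UMIs or more. This lower limit kept 75 of 151 lactating but only 368 of 10817 newborn fibroblasts. Levels of PI16 and CLEC3B above the limit were not matched between the libraries. There MFAP5 stood at 5911 CPM in the lactating and 5789 CPM in the newborn set, a ratio of 0.979 (0.934 to 1.03). FBN1 stood at 3244 and 2691 CPM, a ratio of 0.829 (0.777 to 0.886). Both microfibril genes thus lay much closer between the libraries in this set than over all fibroblasts, whereas LUM moved only from 0.372 to 0.456, and FBLN1 at 0.403, DCN at 0.707 and MGP at 0.707 (0.683 to 0.732) lay farther from 1 than before. PRG4 was still 49.0-fold higher in the lactating set (37.0 to 66.0), with 1244 against 25.4 CPM. POSTN was still 15.7-fold higher in the newborn set (4.30 to 131), again on 2 lactating UMIs. MFAP4 turned direction, with 757 CPM in the lactating and 454.5 CPM in the newborn set.

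Libraries were also set side by side at a matched collagen share. Newborn fibroblasts fell into 4 bands of the share of UMIs in the 3 collagens, from 0.2 to 1% (4138 barcodes), 1 to 2% (2977), 2 to 4% (2394) and 4% or more (1308), and lactating fibroblasts into the same bands with 75, 48, 21 and 7 barcodes. In the newborn 7 of the 9 genes stood higher with every step up in collagen, and the 2 that did not were MFAP5 and PRG4. The share of all genes that rise at every step was not computed, so this count is no result about the 9 genes as a group. MFAP4 went from 482 to 743, 947.5 and 1111 CPM, and its level in the top band was 2.31 times that in the bottom band (2.23 to 2.38). FBLN1 went from 625 to 918, 1150 and 1340 CPM, a ratio of 2.14 (2.08 to 2.21). These 2 of 9 passed, in newborn cells, the 2-fold call for differences within a library, whereas 6.41% of all 2387 genes were called higher and 2.6% lower in the top band. The remaining 5 of those 7 were POSTN at a ratio of 1.65, FBN1 at 1.48, LUM at 1.42, DCN at 1.37 and MGP at 1.29. MFAP5 stood at 1706, 1761, 1518 and 1541 CPM from the bottom to the top band. PRG4 went from 11.4 to 6.54 and 3.43 CPM, with 4.395 CPM on 23 UMIs in the top band. Lactating fibroblasts gave a ratio of the top to the bottom band of 0.465 (0.323 to 0.649) for MFAP5 and 2.51 (1.48 to 4.04) for MFAP4, on 7 barcodes in the top band, from which no call is read. Since every band is cut on collagen UMIs and all genes share the barcodes' total, these steps are a description of 1 library.

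**Figure D3:**
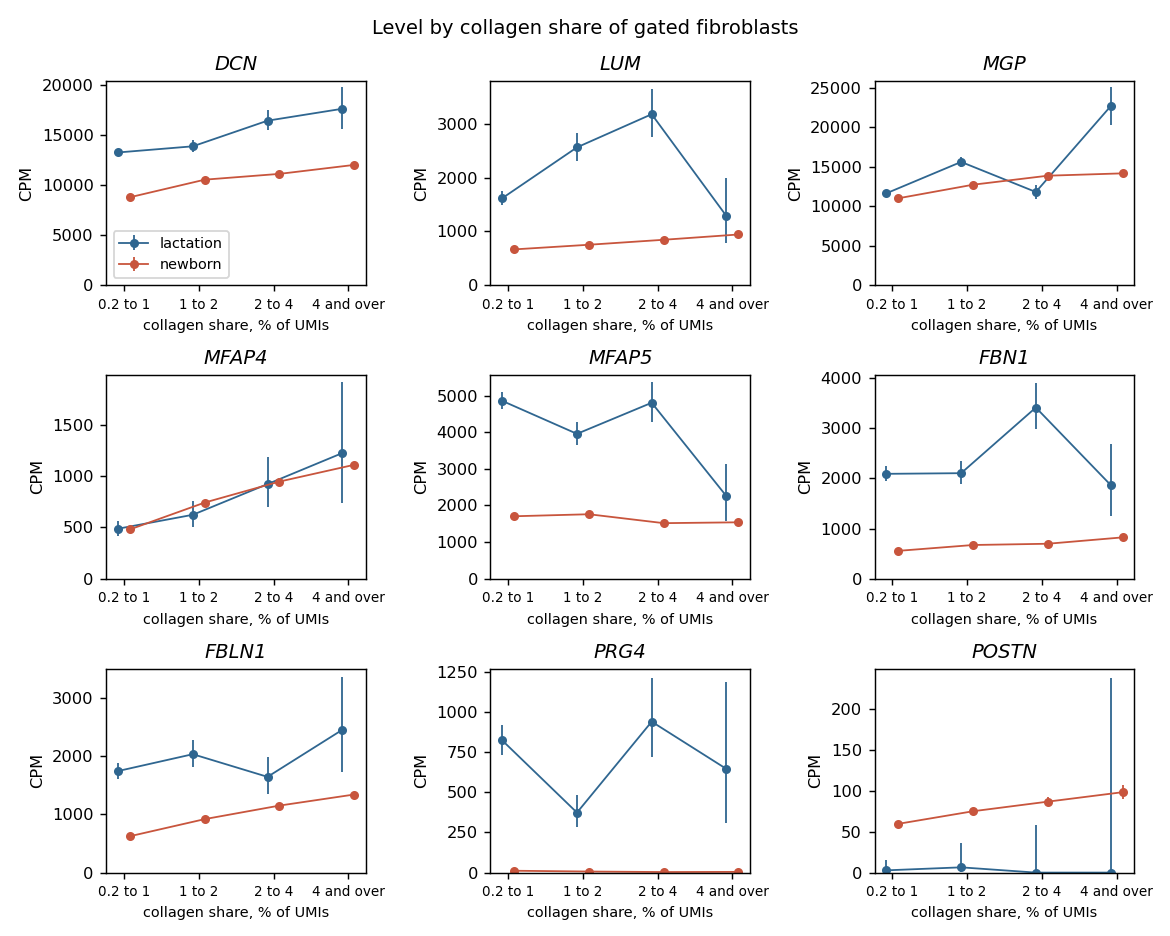
Level of each gene in CPM (linear axes from 0) in gated fibroblasts by the share of UMIs in COL1A1, COL1A2 and COL3A1, lactating in blue and newborn in red, with exact Poisson intervals of 95%. MFAP4 goes from 482 to 1111 CPM in the newborn library, MFAP5 stays between 1518 and 1761 CPM, and the lactating points of the top band rest on 7 barcodes.

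Within bands the stage gap kept its direction for DCN, LUM, MFAP5, FBN1, FBLN1 and PRG4 in each of the 4 bands, although the interval for LUM in the top band, 0.473 to 1.2, included 1. FBN1 was between 2.27-fold and 4.89-fold lower in the newborn, MFAP5 between 1.46-fold and 3.16-fold, and PRG4 between 57.0-fold and 274-fold. FBN1 passed 4-fold only in the band from 2 to 4%, which holds 21 lactating barcodes. MFAP4 did not separate, with ratios of 0.987, 1.19, 1.03 and 0.907 from the bottom to the top band and intervals that included 1 in each. POSTN had 0 lactating UMIs in the bands from 2 to 4% and above, whose 21 and 7 lactating barcodes are too few for a value.

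Newborn fibroblasts were next divided by gates for 4 states: PI16 and CLEC3B (8645 barcodes), PTX3 at 1% of UMIs or more (3885), the fat cell genes PPARG, FABP4 and LPL (2264), and contractile genes (275). Each was set against the 1317 fibroblasts in no state gate. None of the 9 genes was called in any of the 4 states. PRG4 was too low for a call, at 4.96 CPM on 17 UMIs in no gate, and its ratio was 2.78 (1.71 to 4.84) in the PTX3 gate and 0.392 (0.0960 to 1.202) on 4 UMIs in the contractile gate. The background share of genes called higher was 2.14% for PI16 and CLEC3B, 6.86% for PTX3, 1.11% for the fat cell genes and 4.94% for contractile genes, and called lower 2.55%, 12.2%, 2.67% and 5.9%. The gates ask for 2 UMIs, so that barcodes in no gate were shallower, with a median of 2195 UMIs against 5253 in the PI16 and CLEC3B gate, and a barcode could pass several. MFAP5 stood at 1074 CPM in no gate, 1752 CPM in the PI16 and CLEC3B gate (ratio 1.63) and 1944 CPM in the contractile gate (1.81, 1.73 to 1.89). FBN1 stood at 540 CPM in no gate and 873 CPM in the contractile gate (1.62, 1.51 to 1.73). In the PTX3 gate MFAP4 stood at 551 CPM, 0.709 times its level in no gate. When barcodes in several gates were left out, the ratio of MFAP5 in the PTX3 gate went from 1.60 to 0.902 and that of FBN1 from 1.17 to 0.566, so no direction is given for them there. Of the 151 lactating fibroblasts 141 passed the PI16 and CLEC3B gate and 7 were in no gate, too few for a comparison.

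A division that does not ask for a fixed number of UMIs was added after seeing the data. The 25% of newborn fibroblasts with the highest share of PI16 and CLEC3B (2705 barcodes, median 4852 UMIs) were set against the 25% with the lowest (2705, median 4367). FBN1 stood at 1190 CPM in the highest and 393 CPM in the lowest set, a ratio of 3.03 (2.93 to 3.13). MFAP5 stood at 2815 and 1054 CPM, a ratio of 2.67 (2.62 to 2.72). These 2 microfibril genes were called, whereas 2.59% of all 2319 genes were called higher and 0.949% lower. The other 7 genes had ratios between 0.844 for PRG4 and 1.38 for FBLN1. The collagens stood at 22049.2 and 14238.7 CPM in the same sets, and their part in the result was not tested. The 75 lactating fibroblasts with PI16 and CLEC3B at 0.5% of UMIs or more stood at 3244 CPM of FBN1 and 5911 CPM of MFAP5, and all 151, which include them, at 2229 and 4547 CPM. PRG4 and MFAP4 were also higher there, at 1244 and 757 CPM against 713 and 589 CPM. These differences were not tested.

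With PTX3, a secreted pentraxin of inflamed tissue, at 1% of UMIs or more (3885 barcodes) set against all 6932 other newborn fibroblasts, again added after seeing the data, none of the 9 genes was called, beside 9.46% of all genes called higher and 7.88% lower. MFAP4 was 1.53-fold lower in the PTX3 group (1.499 to 1.563), at 551 against 844 CPM. MGP was 1.33-fold lower and LUM 1.24-fold lower. PRG4 stood at 13.8 CPM on 340 UMIs in the PTX3 group and 2.81 CPM on 87 UMIs outside it, 4.91-fold higher (3.87 to 6.29), but stayed under the 50 CPM that a call asks for. Only 12 newborn fibroblasts held 50% of its UMIs, and the interval does not cover the spread between barcodes.

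How the UMIs of each gene were spread over single fibroblasts separated PRG4 and POSTN from the rest. For DCN and MGP the newborn barcodes that held 50% of the UMIs numbered 2826 and 2680 of 10817. For PRG4 the number was 12, and only 141 newborn fibroblasts held any UMI of it. For POSTN 531 barcodes held 50% of the UMIs and 2260 held at least 1. Of the 151 lactating fibroblasts 43 held PRG4, and 7 held 50% of its UMIs, with at most 65 in 1 barcode. PRG4 was thus detected in a minority of fibroblasts in both libraries, and in a larger share of the lactating ones. After thinning to 1000 UMIs the shares were 22.1% (15.4 to 30.0) in the lactating and 0.438% (0.320 to 0.586) in the newborn library. Whether these are the same kind of fibroblast in both libraries was not tested. The unthinned shares were 28.5% and 1.30%. In lactating T and NK cells the thinned share was 0.0910%, and in the newborn ones 0 of 67 barcodes held a UMI, which allows a share of up to 4.48%. POSTN after thinning was detected in 6.13% of newborn and 0.735% (1 of 136) of lactating fibroblasts.

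The PRG4-bearing fibroblasts were described by the other genes. In the lactating library 32 barcodes with at least 3 PRG4 UMIs held 96.5% of its fibroblast UMIs, and they were set against the 108 with none. FBN1 stood at 3491 CPM in them and 1601 CPM in the others, a ratio of 2.18 (1.95 to 2.44). MFAP5 stood at 5856 and 4026 CPM (1.45) and MGP at 15927.3 and 11432.3 CPM (1.39). LUM was lower, at 1698 against 2187 CPM (0.776). PI16 was 2.47 times as high. The PRG4-bearing barcodes were deeper, with a median of 5814.5 against 2591 UMIs, and the part of depth in these differences was not tested.

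In the newborn library 29 barcodes with at least 3 PRG4 UMIs held 69.8% of its fibroblast UMIs. FBN1 stood at 1280 CPM in them and 633 CPM in the 10676 without PRG4, a ratio of 2.02 (1.81 to 2.26). MFAP5 stood at 3302 and 1639 CPM, a ratio of 2.01 (1.88 to 2.16). The same 2 microfibril genes were thus higher beside PRG4 in both libraries. So was CLEC3B, at ratios of 1.97 in the newborn and 1.83 in the lactating library. The share of all genes with such ratios was not computed, so this is no result particular to the 2 genes. MFAP4 was lower, at 388.5 against 721 CPM (0.539, 0.437 to 0.657), which the lactating library did not show, where its ratio was 1.28. PTX3 was 2.08 times as high in the newborn PRG4-bearing barcodes, whereas in the lactating ones its ratio was 0.753. Their median was 7626 UMIs against 4848, and the part of depth was not tested.

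The 5 genes with the largest ratios were listed for each of the same 2 divisions, and SLPI, a secreted inhibitor of leukocyte proteases, was on both lists. Values of the other listed genes in the other library are not given, so no difference between the libraries is read from the lists. In the newborn the 5 genes were PROCR, a receptor of protein C (15.9-fold), ISG20 (10.5-fold), PLAU, the urokinase (10.1-fold), SLPI (9.17-fold, 2442 against 266 CPM) and KLK10 (7.35-fold). In the lactating library they were PTI (57.4-fold on 28 against 1 UMI), DACT2 (34.8-fold), SLPI (44 against 0 UMIs, at least 30.0-fold higher against a floor of 3 UMIs, with a two-sided interval that starts at 23.4-fold), CXCL14 (28.6-fold) and NPPB (26.6-fold). On the other side stood DLK1, a membrane protein of preadipocytes, with 0 UMIs in the 32 lactating PRG4-bearing barcodes and 1337 in the 108 others. That is at least 218-fold lower against the same floor, with a two-sided interval that starts at 177-fold. IGF2, a fetal growth factor, was 58.1-fold lower on 4 against 476 UMIs. In the newborn the lowest were CRABP2 (19.8-fold lower on 1 UMI) and IGFBP1 (17.1-fold lower on 3 UMIs).

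POSTN-bearing fibroblasts could be described only in the newborn library. The 419 barcodes with at least 3 UMIs held 44.5% of its fibroblast UMIs and were set against 8557 with none. The level of MFAP5 was 2404 against 1578 CPM (1.52) and that of FBN1 931 against 619 CPM (1.504), while MFAP4 was lower at 564 against 751 CPM (0.751) and PRG4 lower at 2.78 against 8.28 CPM on 9 and 343 UMIs. CLEC3B was 1.48 times as high, and the share of all genes with such ratios was not computed here either. The collagens differed little, at ratios of 1.14 for COL1A1, 1.15 for COL1A2 and 1.203 for COL3A1. The largest ratios were CCL20, a chemokine, at 8.84-fold, PROCR at 3.76-fold and SLPI at 2.92-fold. PROCR and SLPI thus stood higher beside both PRG4 and POSTN. Median depths were 6497 and 4663 UMIs, and the part of depth was not tested.

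**Figure D4:**
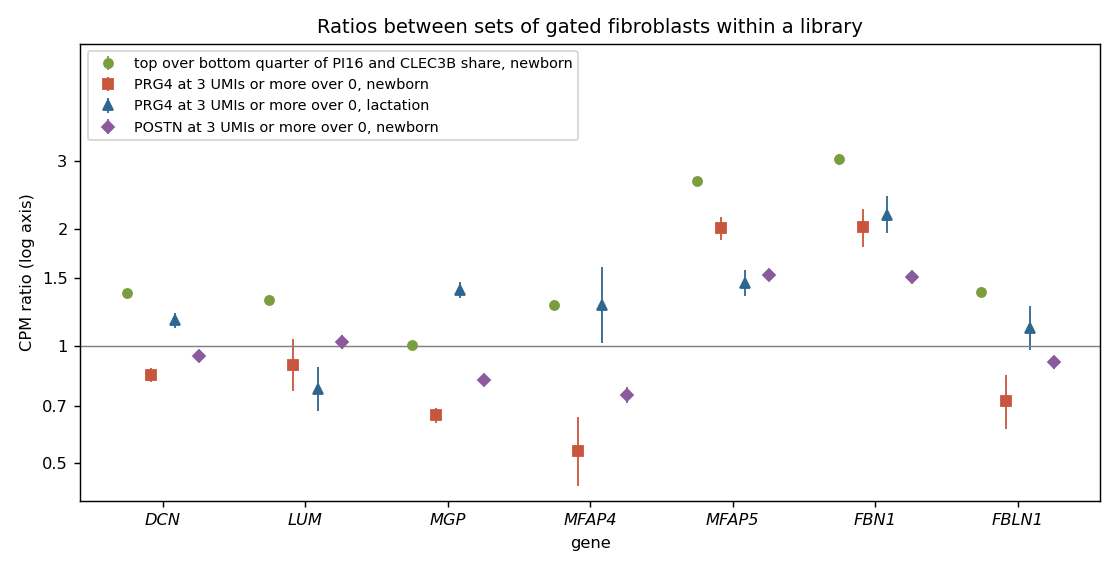
CPM ratio on a log axis between sets of gated fibroblasts of 1 library for the 7 broadly expressed genes, with exact conditional binomial intervals of 95%. MFAP5 and FBN1 lie above 1 in all 4 divisions, between 1.45 and 3.03, and MFAP4 lies at 0.539 and 0.751 beside PRG4 and POSTN in the newborn library.

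Co-detection was measured after thinning each barcode to 1000 UMIs, as the number of barcodes with a UMI of both genes over the number that independent detection gives. In the newborn library the 28 pairs without PRG4 lay between 0.817 and 1.13 over 10 random draws. The highest of these pairs was MFAP5 with FBN1 and the lowest MFAP4 with POSTN. Pairs with DCN or MGP had almost no room to depart from the expected number. These 2 genes were detected in 99.2% and 99.3% of the thinned newborn fibroblasts, so their pairs say nothing about independence. Pairs with PRG4 changed from draw to draw, for example between 1.08 and 1.54 for FBN1 and between 0.622 and 1.19 for LUM, so no value is given for them. The median fibroblast held UMIs of 6 of the 9 genes in the lactating and 5 in the newborn library.

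Outside the fibroblasts MGP was found in mammary epithelium. In the lactating library it stood at 998 CPM (973 to 1023) in the 471 luminal barcodes that did not secrete milk and at 983 CPM (933 to 1036) in the 68 basal or myoepithelial barcodes. These levels were 37.3 times (33.7 to 41.4) and 36.7 times (32.9 to 41.2) that of T and NK cells, and far above the 4.70 CPM of milk-secreting luminal cells. Non-secreting luminal cells held 22.0% of all MGP UMIs of the library. The UMIs were spread over 185 of the 471 luminal barcodes (39.3%) and 49 of the 68 basal barcodes (72.1%), against 282 of 4501 T and NK barcodes (6.27%). Thinned to 1000 UMIs, the shares were 21.6%, 35.3% and 2.18%. Median depths before thinning were 8479, 16264 and 2857 UMIs.

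FBN1 was found in endothelium. It stood at 85.5 CPM (80.5 to 90.7) in 1866 lymphatic endothelial barcodes of the lactating library, 101 CPM (76.4 to 130) in 59 blood endothelial barcodes and 82.0 CPM (51.4 to 124) in 97 that could not be split between them. Its lymphatic level was 18.8 times (14.7 to 24.4) that of T and NK cells and held 26.4% of the library's FBN1 UMIs. At most 8 UMIs lay in 1 of 681 lymphatic barcodes with FBN1, so that the signal was not that of a few barcodes. After thinning, 10.2% of lymphatic and 0.569% of T and NK barcodes held FBN1, and 36.5% and 1.27% before it. The other microfibril genes did not share the pattern, with lymphatic levels of 0.930 CPM for MFAP4, 3.72 for MFAP5 and 3.80 for FBLN1, each close to or under their T and NK levels of 0.803, 5.02 and 4.75 CPM. FBN1 was also 5.60 times the T and NK level in non-secreting luminal and 5.30 times in basal barcodes, at 25.5 and 24.1 CPM.

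In the newborn library FBN1 stood at 173 CPM in 68 lymphatic endothelial barcodes against 25.4 CPM in T and NK cells. Of its 106 UMIs there, 61 lay in 1 barcode, and without that barcode its level was 76.1 CPM. MFAP5 likewise had 154 of 193 UMIs in 1 barcode, without which it stood at 65.9 CPM, below the 116 CPM of T and NK cells. Neither level was read as higher than background, since mast cells, which should lack both genes, stood at 104 CPM of FBN1 and 195 CPM of MFAP5.

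DCN, POSTN and MFAP4 showed smaller levels outside the fibroblasts. DCN stood at 125 CPM (116 to 134) in non-secreting luminal barcodes, 5.28 times its T and NK level of 23.7 CPM. Its 771 luminal UMIs were spread over 190 barcodes, with at most 70 in 1. MFAP4 stood at 13.1 CPM on 19 UMIs in basal barcodes, 16.3 times the T and NK level (7.52 to 36.9). POSTN in the lactating library had 58 UMIs in all, of which 27 (46.6%) lay in basal barcodes at 18.6 CPM (12.3 to 27.1). Those UMIs came from 6 barcodes with 13 in 1, and without that barcode the level was 9.68 CPM. The 59 blood endothelial barcodes held POSTN at 8.67 CPM on 5 UMIs, 43.2 times the T and NK level (8.41 to 278), and PRG4 at 8.67 CPM on 5 UMIs, 7.203 times that level (2.09 to 20.1), 4 of the PRG4 UMIs in 1 barcode. In luminal, basal and lymphatic barcodes LUM, FBLN1 and PRG4 stood at no more than 2.43 times their T and NK level. The classes outside the fibroblasts were limited to 0.5% of UMIs in collagens. Without that ceiling DCN stood at 45.2 CPM in lactating T and NK cells and at 1427 CPM in the newborn ones, against 23.7 and 617 CPM with it. With a ceiling of 0.2% DCN in newborn mast cells stood at 619.5 CPM in place of 1401 CPM.

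**Figure D5:**
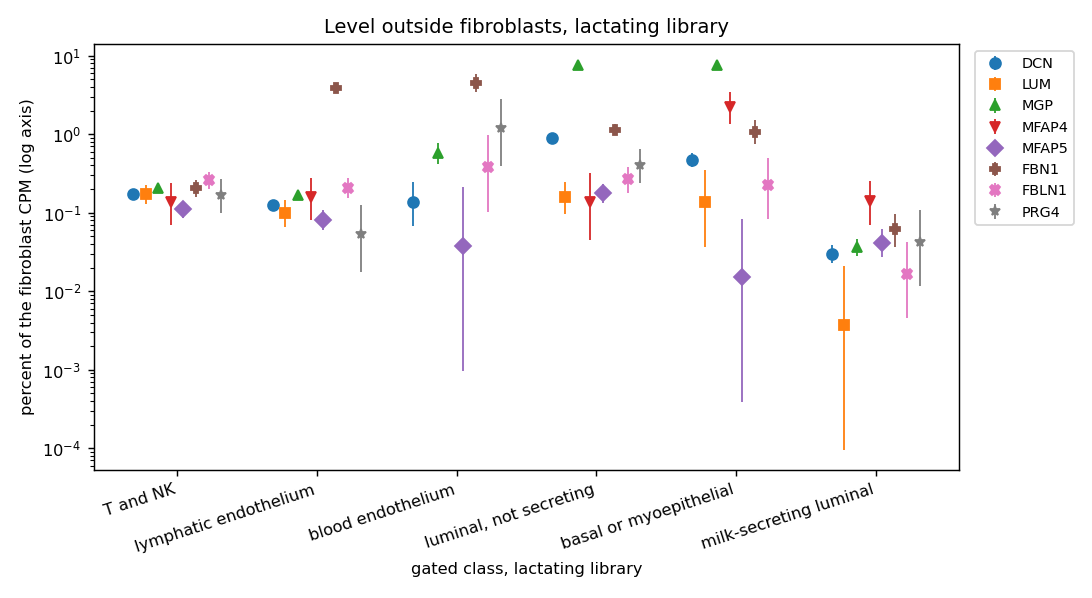
Level of 8 of the genes (POSTN is left out, as its fibroblast level rests on 2 UMIs) in 6 classes of the lactating library, as percent of the gene's own fibroblast CPM on a log axis; bars are exact Poisson intervals of 95% of the class level, and genes at 0 UMIs are not drawn. T and NK cells lie between 0.110% and 0.260%, MGP reaches 7.71% and 7.59% in luminal and basal cells, and FBN1 reaches 3.83% and 4.51% in lymphatic and blood endothelium.

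Neighbours in the order of levels were often too close to separate. For MGP in the lactating library the order was fibroblast, luminal, basal, neutrophil at 113 CPM and blood endothelium at 74.6 CPM, in which luminal and basal cells did not differ beyond their intervals, nor did neutrophils and blood endothelium. For FBN1 blood, lymphatic and unsplit endothelium did not differ beyond their intervals. For lactating POSTN the interval of blood endothelium overlapped those of basal cells and of fibroblasts, and for newborn PRG4 no class was separated from the fibroblasts.

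Genes most like each member were named by Pearson's r of log2(CPM + 1) over the 15 classes of at least 50 barcodes, a description in which 11 points share a library and fibroblasts stand apart. DCN was most like C1S, a complement protease (r = 0.971), LUM like OLFML1 (0.979), MGP like NTRK2 (0.960), MFAP5 like DPT, the dermatopontin (0.966), and FBLN1 like LUM (0.978). FBN1 was most like FBLN2, another fibulin (0.969). PRG4 was most like EGFLAM (0.940) and POSTN like CFB (0.838), the lowest of the best matches. MFAP4 was most like HAS2, which makes hyaluronan. Between members the r ran from 0.225 for PRG4 with POSTN to 0.978 for LUM with FBLN1.

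Other matrix genes of the same roles were read from 6 lists with 59 genes in all, of which 36 reached the level for a call. In all 2 were called on the newborn side and 8 on the lactating side, beside 3.72% and 6.69% of all genes. Among the other small leucine-rich proteoglycans 8 of 11 were considered, 0 were called on the newborn and 2 on the lactating side, and the median log2 difference was -1.65. ASPN (asporin) was 8.08-fold lower in the newborn, at 92.6 against 748 CPM, and KERA (keratocan) 4.24-fold lower, at 41.9 against 177 CPM. In the RefSeq annotation of the assembly ARS-UCD2.0 LUM lies between KERA and DCN. The 3 neighbours all stood lower in the newborn fibroblasts, by 4.24-fold, 2.69-fold and 1.38-fold, though DCN did not do so under scaling by the median ratio. The median log2 difference over all genes was -0.74, and DCN at -0.46 lay on the newborn side of it. The shared direction is therefore no result about these neighbours.

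Among microfibril and elastic fibre genes 14 of 19 were considered, 1 was called on the newborn and 4 on the lactating side, and the median was -1.19. ELN, the elastin that is laid on microfibrils, was 7.40-fold higher in the newborn (6.67 to 8.24), at 4359 against 589 CPM. FBN2, the fibrillin of developing tissue, had 1028 newborn UMIs and 1 lactating UMI, at 18.5 against 1.67 CPM, a ratio of 11.05 with an interval of 1.98 to 437. HMCN1 was 53.2-fold and EFEMP1, a fibulin, 8.44-fold lower in the newborn. The remaining 2 called genes, named after their values were seen, were LOXL1, which crosslinks elastin (6.62-fold lower), and FBLN2 (4.401-fold lower).

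Among matricellular genes 10 of 11 were considered, 1 was called on the newborn and 2 on the lactating side, and the median was -0.28. SPARCL1 was 4.68-fold and THBS1 3.13-fold higher in the newborn, and THBS4 was 10.6-fold and SPP1, the osteopontin, 9.65-fold lower. TNC had 93 newborn UMIs and 0 lactating ones, at 1.67 newborn CPM. Of the 12 enzymes of glycosaminoglycan chains 1 was considered and 0 were called, with a median of -0.71. XYLT1 (ratio 7.19) and CSGALNACT1 (1.95) rested on 1 lactating UMI each, and CHST14 and B3GAT3 were 2.17-fold and 1.97-fold lower in the newborn. Of 3 genes of gamma-carboxylation, the step that activates MGP, 2 were considered and 0 called, with a median of -1.02, and GGCX and VKORC1 were 2.27-fold and 2.03-fold lower in the newborn. Of 3 large proteoglycans 1 was considered and 0 called, with a median of -1.47 over 2 genes, and VCAN (versican) was 2.35-fold lower. These medians stand beside that of -0.74 over all genes.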

How the data were processed

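The authors deposited raw UMI counts per gene and barcode, made with Cell Ranger 3.1.0, per the file headers and the submitters' processing notes. The genome build is not given in the sources used here. The study states 24472 cells, the matrices held 29669 barcodes, and 28401 remained with at least 300 genes and at most 20% of UMIs from 13 mitochondrial protein genes. Fibroblasts had at least 0.2% of UMIs and 5 UMIs over 2 of 3 collagen genes, and per list of 10 other lineages at most 1 UMI or 0.05% of UMIs. Other classes had at least 3 UMIs over 2 genes and 0.1% of UMIs of their own list, and at most 0.5% collagens. TPSB1 and CMA1 of the mast cell list are not among the symbols. No doublet caller was run. The limits on other lineages and on collagens leave out barcodes with many UMIs of both, how many doublets remained was not tested, and 6599 lactating and 2590 newborn barcodes passed no gate. UMIs were summed per class and given as CPM with exact 95% Poisson intervals, shares have Clopper-Pearson intervals, and the limit printed beside 0 UMIs is 3 counts. The call rule between libraries and its ratio interval were tested on simulated Poisson counts, which hold no spread between barcodes or animals. Python 3.11.15, numpy 2.4.6, scipy 1.17.1 and pandas 2.3.3 were used.

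All 9 members were named, and of related lists the 2 largest ratios in each direction with 20 UMIs. Genes named beside PRG4 and POSTN are largest ratios chosen after seeing the data. The members and lists were chosen with earlier results of these data known.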

Additional observations from a re-analysis of the deposited data

Results flagged for a closer look

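DCN and MGP were also abundant in barcodes that passed no gate and were used in none of the comparisons. In the lactating library 6599 such barcodes held DCN at 157 CPM on 5057 UMIs, which is 33.8% of its UMIs, and MGP at 362 CPM on 11670 UMIs, which is 41.7%. In the newborn library 2590 such barcodes held DCN at 4799 CPM on 40814 UMIs (6.78%) and MGP at 6896 CPM on 58650 UMIs (7.83%). All 4 levels lay above those in T and NK cells of the same library. Nor was this particular to DCN and MGP. Of the lactating UMIs of the other genes, between 24.1% (POSTN) and 42.8% (PRG4) lay in such barcodes. Only 7.33% of the 6599 lactating barcodes held DCN, and the top 1% held 74.9% of its UMIs there. For MGP these shares were 11.1% and 65.7%. Of the lactating barcodes without a gate, 4175 passed no list, 1884 passed 1 list and 540 passed 2 or more. In the newborn 2555 of 2590 passed no list.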

How the results depend on the processing

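Each stage has 1 library, so no library could be left out. No paired analysis was possible because each stage has 1 library. Of 34 recomputed counts, 29 stayed within 1.5 times and 5 moved. The stage calls fell from 2 to 0 in the collagen band from 4%, which has 7 lactating barcodes. The state calls went from 0 to 1 with gates at 4 UMIs (MFAP5, contractile, 2.08) and to 1 with barcodes in several gates left out (MFAP5, contractile, 2.18), and to 2 between the top and bottom 25% of the PI16 and CLEC3B share (MFAP5 and FBN1). Of 3 newborn pairs past 1.2 or 0.8 in co-detection, 0 stayed past in all of 10 draws. PRG4 was 49.0-fold to 274-fold lower in the newborn under 19 settings. POSTN was 9.58-fold to 43.1-fold higher under 16 settings, and 3 others left 0 lactating UMIs. FBN1 was called with 0 UMIs of other lineages (4.398-fold, 40 lactating barcodes) and in the band from 2% (4.89-fold). In both of these settings POSTN was not called, so that the count of 2 stayed although the genes changed. LUM, MFAP5, FBN1 and FBLN1 kept their sign in 19 of 19 settings, DCN in 18, MFAP4 in 15 and MGP in 13. Scaling by the median ratio, a log2 shift of -0.51, put DCN at a ratio of 1.03, MGP at 1.36 and MFAP4 at 1.72. Related genes called numbered between 8 and 10 against 10. Settings added after seeing the data were the PI16 and CLEC3B divisions, the PTX3 division, the draws, the related gene settings and leaving out single or shared barcodes.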

Other observations

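MGP and DCN were seldom detected in the same non-secreting luminal barcode of the lactating library. Of 417 barcodes thinned to 1000 UMIs, 90 held MGP, 46 held DCN and 3 held both, where independent detection gives 9.93. Over 10 draws the observed number was 0.177 to 0.615 times that expected. Sets chosen after these values were seen were 68 barcodes with at least 3 MGP and no DCN UMIs (median 12843 UMIs) and 53 with at least 3 DCN and no MGP UMIs (median 8376). ELF5, a regulator of milk-forming luminal cells, stood at 732 CPM in the MGP set (65 of 68 barcodes) and 114 CPM in the DCN set (11 of 53). M-SAA3, an acute phase protein of the mammary gland, was 64.2-fold and CX3CL1, a chemokine, 24.8-fold higher in the MGP set. ESR1, the oestrogen receptor of hormone-sensing luminal cells, had 3 UMIs in the MGP set (3 barcodes) and 20 in the DCN set (16 barcodes). BDA20 was 32.5-fold higher in the DCN set (35 against 8 barcodes) and CA4 146-fold on 204 against 3 UMIs. The luminal keratin KRT8 was held by 66 of 68 and 51 of 53 barcodes. In the DCN set all UMIs of LUM (8), MFAP5 (12), PRG4 (14) and COL1A1 (6) lay in 1 barcode each. Other matrix genes were found in more of the 53 barcodes: FBN1 in 5 (15 UMIs), COL1A2 in 4 (4 UMIs), COL3A1 in 3 (5 UMIs) and FBLN1 in 2 (2 UMIs). The part of depth and of free RNA in these differences was not tested.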
